A study of Mus musculus with 2 samples.

Results

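Lcn2, Hp, 1100001G20Rik, S100a8, S100a9 and Prss16 were followed in single CD11b+CD45int cells from mouse brain after systemic inflammation. These 6 of the 19537 genes in the 2 deposited count matrices were taken as a list because they were counted in wildtype cells and not in PARK7/DJ-1 knock-out (KO) cells, so their difference between the genotypes is a description of how they were chosen. Lcn2 encodes lipocalin 2, which binds iron-loaded bacterial siderophores, and Hp encodes haptoglobin, which binds free haemoglobin; both are acute-phase proteins. 1100001G20Rik, now named Wfdc21, encodes a small secreted protein with a whey acidic protein (WAP) domain. S100a8 and S100a9 encode the subunits of calprotectin, a calcium-binding protein abundant in the cytosol of neutrophils, and Prss16 encodes a serine protease best known from the thymus. Lcn2 protein is also stored in neutrophil granules, whereas in the inflamed brain Lcn2 is made by glia and endothelium under the control of NF-kB, C/EBP and STAT3 signalling.

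Each genotype gave 1 library, called KO LPS and WT LPS, and each library pooled 1 female and 1 male mouse aged 3 to 4 months. KO mice carried the gene-trap allele Park7 Gt(XE726)Byg of a B6;129P2 line that had been backcrossed to C57BL/6NCrl, and WT mice were wildtype littermates. All mice had received a single intraperitoneal injection of lipopolysaccharide (LPS, 4 µg per g body weight), a component of the outer membrane of Gram-negative bacteria, 24 h before the cells were sorted. Drop-seq was used to profile single cells: each droplet pairs a cell with a bead whose primers add a cell barcode and a unique molecular identifier (UMI) to the 3' end of every captured transcript. A barcode with at least 500 UMIs and at least 100 genes was taken as a cell, which gave 320 KO LPS cells and 1427 WT LPS cells. Levels are UMIs of a gene per 1e6 UMIs of the cells (CPM), which for 3' counts does not scale with transcript length. Without replicate libraries no test between the genotypes was possible, and genotype and library cannot be told apart. All intervals are 95% intervals that cover counting error only, exact Poisson for levels, conditional binomial for ratios and Clopper-Pearson for shares.

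The KO LPS cells held 381305 UMIs (median 963.5 per cell) and the WT LPS cells 1989011 UMIs (median 1065 per cell). Park7, the targeted gene, had 1 UMI in KO LPS cells (2.62 CPM) and 323 in WT LPS cells (162 CPM). The label microglia was checked with 15 microglial marker genes, which summed to 40173 CPM in KO LPS cells and 36040 CPM in KO LPS barcodes of 1 to 100 UMIs, a ratio of 1.11 (1.08 to 1.15), and in WT LPS to 29212 and 16510 CPM, which is 1.77 times (1.72 to 1.82) as high in cells. At least 1 of their UMIs was found in 320 of 320 KO LPS cells and 1426 of 1427 WT LPS cells, but 500 UMIs drawn from the shallow barcodes would hold 18.0 and 8.26 of them, so holding such a UMI does not set a cell apart from free RNA. No barcode was shared by cells of both libraries. Cells in which Xist but none of 4 Y-linked genes was counted (Xist-only cells) numbered 200 among the KO LPS cells against 565 in WT LPS, and cells with counts of Y-linked genes but not of Xist (Y-only cells) 12 against 195. No untreated library was used here, so the LPS label of KO LPS could not be checked, and the LPS response genes of that library are given with the results.

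The promoters of the members are shown because Lcn2, S100a8 and S100a9 are classical targets of inflammatory transcription factors and because S100a8 and S100a9 are neighbouring genes whose counts are compared across barcodes. RefSeq promoters were at hand for 3 of the 6 members. The printed stretches are the 250 bases upstream of the annotated start on build GRCm38.p6, read 5′ to 3′ on the strand of the gene: chr2:32387740-32387989 on the minus strand for Lcn2, chr3:90668821-90669070 on the plus strand for S100a8 and chr3:90695722-90695971 on the minus strand for S100a9. Capitals mark matches, on either strand, to NF-kB (GGGNNNNNCC), C/EBP (TTGCNNAA), STAT (TTCNNNGAA) or the TATA box (TATAAA).

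Lcn2: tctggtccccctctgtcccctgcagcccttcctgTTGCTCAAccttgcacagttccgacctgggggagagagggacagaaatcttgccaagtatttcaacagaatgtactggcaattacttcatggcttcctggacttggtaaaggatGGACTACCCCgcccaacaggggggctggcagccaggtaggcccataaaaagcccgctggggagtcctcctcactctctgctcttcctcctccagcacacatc

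S100a8: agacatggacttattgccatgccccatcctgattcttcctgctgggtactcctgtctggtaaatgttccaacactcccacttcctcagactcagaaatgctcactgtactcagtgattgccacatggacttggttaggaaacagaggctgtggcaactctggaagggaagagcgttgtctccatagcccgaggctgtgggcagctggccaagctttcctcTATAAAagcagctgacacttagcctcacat

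S100a9: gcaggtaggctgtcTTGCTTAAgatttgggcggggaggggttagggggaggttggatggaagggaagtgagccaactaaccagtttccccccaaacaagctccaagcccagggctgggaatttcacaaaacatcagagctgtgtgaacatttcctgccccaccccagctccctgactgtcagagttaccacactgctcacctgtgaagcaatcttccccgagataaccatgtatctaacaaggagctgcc

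In Lcn2, the C/EBP letters stood at bases 35 to 42 of the window and the NF-kB letters, on the opposite strand, at bases 149 to 158. In S100a8, TATAAA stood at bases 221 to 226. S100a9 carried the C/EBP letters at bases 15 to 22, and TATAAA at bases 251 to 256, which begins at the first transcribed base of this annotation and thus just past the printed stretch. No matches overlapped, and the STAT letters were not found in these windows. Of 32851 RefSeq promoter windows of 300 bases, 50.8% held the NF-kB letters, 10.8% the C/EBP letters, 8.30% the STAT letters and 13.6% TATAAA, so these matches are common and describe only the letters present. Promoters of Hp, Wfdc21 and Prss16 were not analysed here.

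None of the 6 members was counted in KO LPS, in cells or in any other barcode, whereas all 6 were counted in WT LPS cells. The KO LPS matrix gave no value for them, and as each of the 13921 genes it lists had at least 1 UMI, the missing values were read as 0. With 0 UMIs in KO LPS cells, each member's level there was set against a floor of 3 UMIs in that library, or 7.87 CPM. In WT LPS cells, Lcn2 had 885 UMIs, or 445 CPM (416 to 475), in 295 cells. This was the second highest UMI count among the 141 genes at 0 in KO LPS cells, after Saa3, which encodes an acute-phase apolipoprotein. Set against that floor, Lcn2 was at least 56.6-fold lower in KO LPS than in WT LPS. The floor is a convention for a count of 0, and the exact 95% limit of 3.69 UMIs gives smaller bounds, at least 46.0-fold for Lcn2. At the WT LPS level, 170 Lcn2 UMIs would have been counted in the KO LPS cells.

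Hp had 66 UMIs in 45 WT LPS cells, 33.2 CPM (25.7 to 42.2), and was at least 4.22-fold lower in KO LPS. 1100001G20Rik had 36 UMIs in 24 cells, 18.1 CPM (12.7 to 25.1), and was at least 2.30-fold lower. Both of these levels were small, and 6.90 UMIs of 1100001G20Rik would have been counted in KO LPS at the WT LPS level. S100a8 had 81 UMIs in 47 WT LPS cells, 40.7 CPM (32.3 to 50.6), and was at least 5.18-fold lower in KO LPS. S100a9 had 45 UMIs in 16 cells, 22.6 CPM (16.5 to 30.3), and was at least 2.88-fold lower. For both calprotectin subunits a single WT LPS cell carried much of the count, with 24 S100a8 UMIs and 23 S100a9 UMIs. Without that cell, S100a8 was at 28.7 CPM and S100a9 at 11.1 CPM in WT LPS, and their bounds fell to at least 3.64-fold and 1.41-fold. Prss16 had 31 UMIs in 26 cells, 15.6 CPM (10.6 to 22.1), and was at least 1.98-fold lower, so its KO LPS level could not be set more than 2-fold below WT LPS.

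At the floor of 3 UMIs the bounds of 5 of the 6 members lay past 2-fold, where 14.3% of the 9085 genes with a sum of 20 UMIs or more were at least 2-fold lower in KO LPS and 12.9% at least 2-fold higher. Of the same genes, 1.55% had 0 UMIs in KO LPS cells, and 0.911% of the 8563 genes with at least 20 UMIs in WT LPS cells were not listed in KO LPS at all. With the exact limit 4 of the 6 lay past 2-fold, as 1100001G20Rik came to 1.87-fold and Prss16 to 1.61-fold. Without the cell richest in calprotectin transcripts 4 of the 6 did, and in cells of 1000 UMIs or more 3 of the 5 members with at least 20 UMIs did. As the members were chosen for this contrast, nothing is read from these counts. Over all 9999 barcodes of each library the bounds rose to at least 83.2-fold for Lcn2, 11.4-fold for S100a9, 10.5-fold for S100a8, 6.03-fold for Hp, 3.43-fold for 1100001G20Rik and 3.35-fold for Prss16.

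The acute phase and LPS response genes that accompany Lcn2 were low in KO LPS as a group. Of 33 listed genes, 29 were in the matrices and 21 had at least 20 UMIs. All 21 of these were at least 2-fold lower in KO LPS and 0 at least 2-fold higher, beside 14.3% and 12.9% of all genes. Their median log2 ratio was -4.54 with a prior count of 0.5, and -2.83 with counts under 3 set to 3, beside 0.03 and -0.02 over all genes. The list was chosen with earlier results of these data known. Of the 21 genes, 10 had 0 UMIs in KO LPS cells and so reached 20 UMIs through WT LPS alone. Nothing is therefore read from this count. The 29 genes summed to 383 CPM (323 to 450) in KO LPS cells, against 9876 CPM (9739 to 10015) in WT LPS cells. Saa3 had 0 UMIs in KO LPS cells and 8367 in WT LPS cells (4207 CPM), at least 535-fold lower. Ccl5, a chemokine, and Il1r2, a decoy receptor of interleukin 1, also had 0 UMIs against 797 and 577 UMIs, at least 50.9-fold and 36.9-fold lower. Msr1, a scavenger receptor, had 2 UMIs in KO LPS cells and 3153 in WT LPS cells, a ratio of 0.00331 (0.000401 to 0.0120). The absence of the 6 members in KO LPS thus stood beside a low level of the whole list, and whether both have the same origin was not tested.

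**Figure D1:**
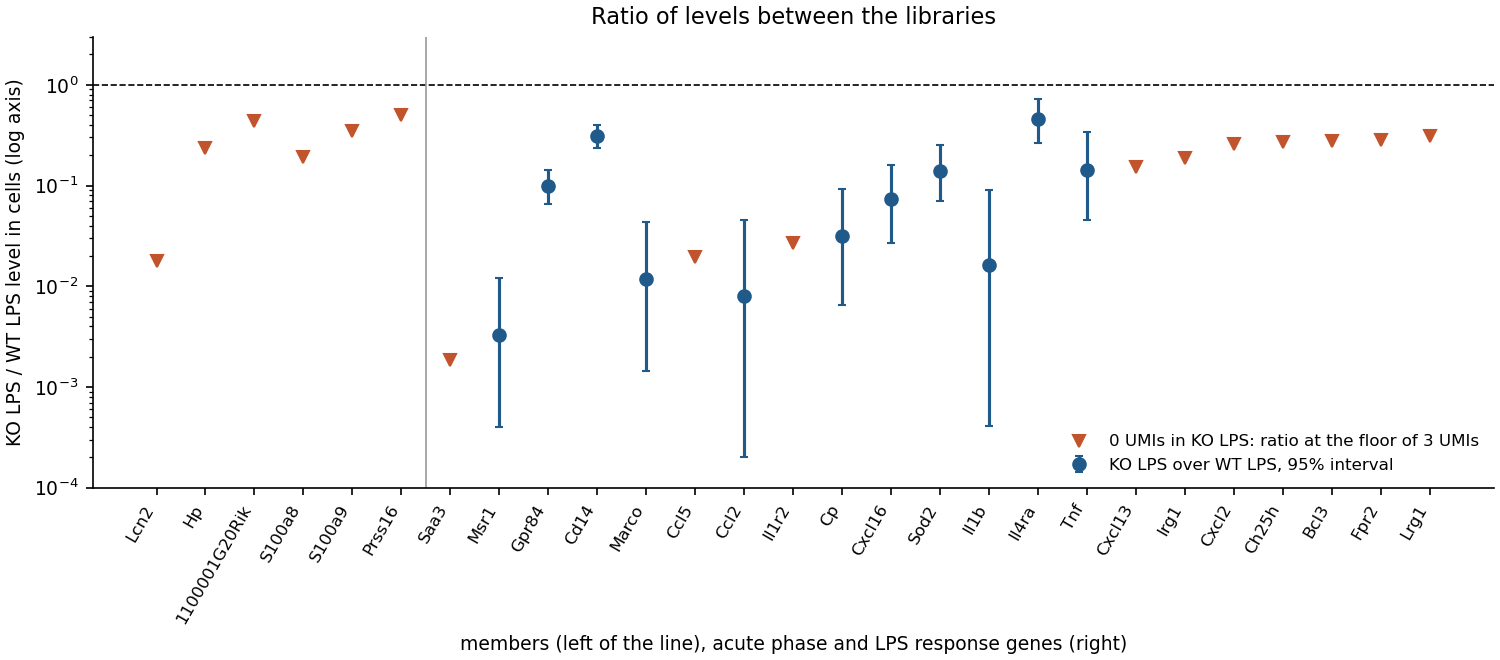
Level in KO LPS cells over WT LPS cells (log axis) for the 6 members, left of the vertical line, and the 21 acute phase and LPS response genes with at least 20 UMIs, right of it. Circles are ratios with 95% intervals, triangles the ratio at the floor of 3 UMIs for genes with 0 UMIs in KO LPS, and the dashed line marks equal levels; every member is a triangle, from 0.0177 for Lcn2 to 0.505 for Prss16, and every listed gene lies below the line.

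Genes upstream of Lcn2 went in both directions. Of 19 tested regulators (receptors, NF-kB, STAT3 and C/EBP factors and their inhibitors), 7 were at least 2-fold lower, 1 at least 2-fold higher and 11 within 2-fold, beside the 14.3% lower and 12.9% higher over all genes. Socs3, a feedback inhibitor of STAT3 signalling, had 6 and 272 UMIs in KO LPS and WT LPS cells, a ratio of 0.115 (0.0419 to 0.254). Nfkbia, the NF-kB inhibitor and itself an NF-kB target, was at 220 and 1164 CPM, a ratio of 0.189 (0.150 to 0.235), and Nfkb2, an NF-kB subunit, had a ratio of 0.174 (0.0206 to 0.656). Cebpa, a myeloid transcription factor, went the other way with 165 and 38.7 CPM, a ratio of 4.27 (3.01 to 6.03), while Cebpb, a C/EBP factor with more UMIs in WT LPS (1107) and named here after its values were seen, was lower at 0.264 (0.198 to 0.345).

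Of 7 tested binding partners and receptors of the 6 proteins, 1 was at least 2-fold lower and 0 at least 2-fold higher, where 14.3% and 12.9% of all genes were, and a share of 1 in 7 does not set them apart. Hmox1, the haem oxygenase that acts on haem released from haemoglobin, had 4 and 56 UMIs, a ratio of 0.373 (0.0981 to 1.01). Slc22a17, a proposed lipocalin 2 receptor, had 7 and 61 UMIs, a ratio of 0.599 (0.231 to 1.31). Lrp1, a receptor that takes up haem complexes, was higher in KO LPS with 146 and 419 UMIs and a ratio of 1.82, as was Cd33, a sialic acid-binding receptor, with 65 and 174 UMIs and a ratio of 1.95 (1.44 to 2.61).

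Among relatives of the members, 1 of 3 tested S100 genes was at least 2-fold lower, beside 14.3% of all genes, so nothing is read from this count: S100a10, an annexin partner, had 2 and 58 UMIs, a ratio of 0.180 (0.0213 to 0.680). The other two, S100a1 and S100a13, had ratios of 0.555 (0.172 to 1.39) and 0.605 (0.251 to 1.26). Wfdc17, a WAP domain gene like 1100001G20Rik, had 1 and 57 UMIs, a ratio of 0.0915 (0.00228 to 0.531). Of the 15 microglial markers, 8 were at least 2-fold higher in KO LPS, where 12.9% of all genes were, and 0 at least 2-fold lower. P2ry12, a purinergic receptor of resting microglia, stood at 3837 and 406 CPM, and Gpr34, Siglech and Fcrls, further microglial genes, had ratios of 8.05 (7.09 to 9.14), 5.86 (5.27 to 6.50) and 3.83 (3.43 to 4.27). The complement genes C1qa, C1qb and C1qc, named after their values were seen, were lower by less than 2-fold, with ratios of 0.536 (0.503 to 0.571), 0.722 and 0.752, and the upper ends of their intervals were below 1.

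Among markers of neutrophils other than the members, most granule and lineage genes were at 0 or near it, and 3 markers that other myeloid cells also express made up nearly all of the counts. Of 21 neutrophil markers, 15 were in the matrices, and these summed to 430 CPM (367 to 501) in KO LPS cells, against 297 CPM (273 to 322) in WT LPS cells. All 164 of the KO LPS UMIs were of Csf3r, the receptor for granulocyte colony-stimulating factor, which microglia also express and which had 384 UMIs in WT LPS. The granule and lineage genes Camp, Ngp, Ltf, Mpo, Mmp9, Chi3l3, Stfa2l1, Itgb2l and Pglyrp1 were at 0 in the cells of both libraries, while WT LPS cells held 8 UMIs of Mmp8, 5 of Cxcr2 and 2 of Retnlg. 1810033B17Rik, now named Mcemp1, and Trem1, both also found in activated macrophages, had 119 and 72 UMIs in WT LPS cells and 0 in KO LPS cells. UMIs of neutrophil markers other than Csf3r were found in 47 of 295 WT LPS cells with Lcn2, 15.9% (11.9 to 20.6), in 10 of 45 with Hp, 4 of 24 with 1100001G20Rik, 11 of 47 with S100a8, 2 of 16 with S100a9 and 7 of 26 with Prss16, beside 156 of all 1427 cells, 10.9% (9.36 to 12.7). Cells with a member were mostly deeper, with a median of 1520 UMIs for Lcn2 against 1065 over all cells. With every cell thinned to 500 UMIs by a random draw, such UMIs were found in 12 of 164 cells with Lcn2, 7.32% (3.84 to 12.4), and in 57 of all 1427, 3.99% (3.04 to 5.14). Of 3 compared monocyte and 3 compared border macrophage markers, 2 each were at least 2-fold lower in KO LPS and 1 each higher. Over all genes these shares were 14.3% and 12.9%. Ms4a4c and Fn1 had 1 KO LPS UMI each against 124 and 57, and Siglec1 and F13a1 had 0 against 76 and 46. Ccr2 and Mrc1 were higher in KO LPS, with ratios of 2.78 (1.02 to 6.99) and 5.96 (3.18 to 11.3). The part of other cells or of free RNA in these counts was not tested.

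Whether the members stood above RNA free in the suspension was examined by comparison with barcodes of 1 to 100 UMIs, which are taken to hold no cell. In WT LPS they had a median of 75 UMIs, and whether they included cells poor in RNA was not tested. The words free RNA stand below for the profile of these barcodes. Lcn2 was 2.42 times (1.86 to 3.22) as high in WT LPS cells as in these barcodes, at 445 and 184 CPM. Against barcodes of 1 to 50 UMIs, which held 4 Lcn2 UMIs, the ratio was 1.60 (0.621 to 5.87), an interval that included 1. By depth, Lcn2 was at 184 CPM in barcodes of 1 to 100 UMIs, 229 CPM over 100 and under 500 UMIs, 385 CPM from 500 to under 750, 466 CPM from 750 to under 1000, 404 CPM from 1000 to under 1500 and 468 CPM at 1500 UMIs or more. The intervals of the 2 shallower groups of barcodes, up to 237 and 266 CPM, lay below those of the 4 groups of cells, which began at 309 CPM, and the 4 groups of cells overlapped each other. At least 2-fold higher levels in cells were found for 18.3% of the 8830 genes compared, and at least 2-fold lower levels for 2.51% (median log2 ratio 0.27).

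1100001G20Rik, Hp and Prss16 had ratios above 1 whose intervals included 1, namely 2.86 (0.736 to 24.5), 1.75 (0.761 to 4.93) and 1.64 (0.512 to 8.39), with 2, 6 and 3 UMIs in the barcodes of 1 to 100 UMIs. For these 3 transcripts a difference between cells and free RNA was not detectable at this depth, and against barcodes of 1 to 50 UMIs, with 1 UMI of each there, the ratios of 1100001G20Rik and Prss16 turned to 0.260 (0.0437 to 10.5) and 0.224 (0.0373 to 9.12).

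S100a8 and S100a9 were lower in cells than in barcodes of 1 to 100 UMIs. S100a8 was at 40.7 CPM in cells and 82.3 CPM in barcodes of 1 to 100 UMIs, a ratio of 0.495 (0.315 to 0.802). S100a9 was at 22.6 and 114 CPM, a ratio of 0.198 (0.125 to 0.317), or a log2 ratio of -2.33, which became -3.37 without the 1 cell that held 23 of its 45 UMIs. In the barcodes over 100 and under 500 UMIs, S100a9 was at 94.9 CPM (74.2 to 119), still above cells, whereas S100a8 was at 44.8 CPM (31.0 to 62.6), which overlapped its level in cells of 40.7 CPM (32.3 to 50.6).

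**Figure D2:**
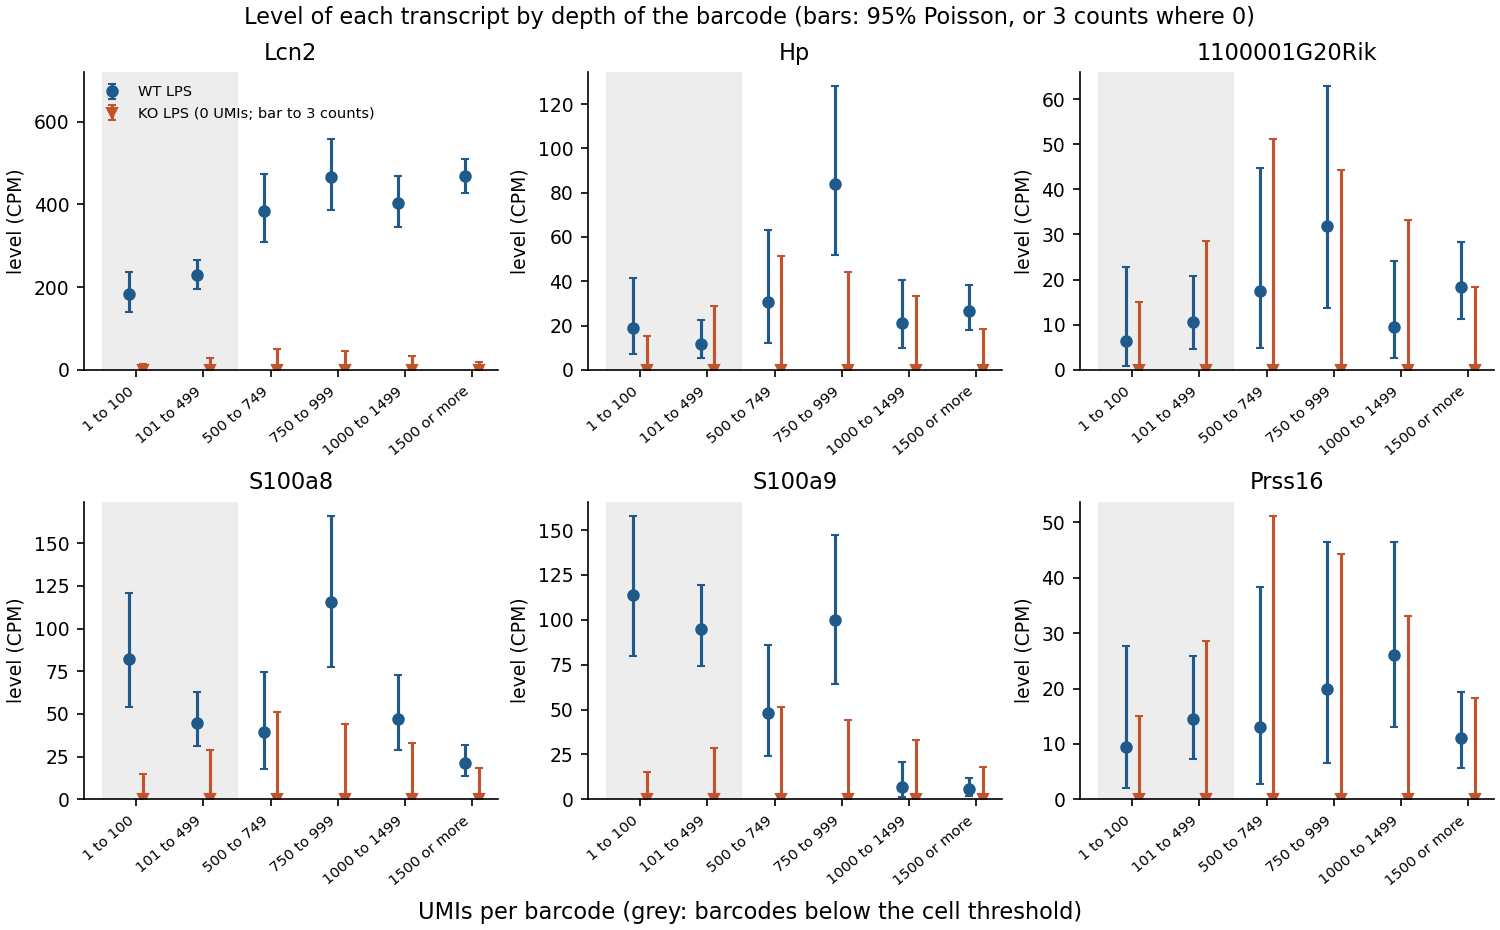
Level of each member (CPM, linear axis from 0) by the number of UMIs of the barcode, in WT LPS (circles) and KO LPS (triangles at 0), with 95% Poisson intervals, or bars up to 3 counts where the count is 0; grey marks barcodes below the threshold for cells. Lcn2 in WT LPS steps up from 229 CPM in the barcodes just below the threshold to 385 CPM in the shallowest cells, S100a9 falls to 5.52 CPM in the deepest cells, and the highest S100a8 and S100a9 points among cells contain the 1 cell with 24 and 23 UMIs.

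The share of S100a8 among the 2 calprotectin transcripts was highest in the deeper cells. S100a8 made up 41.9% (29.5 to 55.2) of their 62 summed UMIs in barcodes of 1 to 100 UMIs and 32.1% (23.3 to 41.8) of 106 UMIs in barcodes over 100 and under 500 UMIs. In cells under 1000 UMIs the share was 51.4% (39.4 to 63.1) of 74 UMIs, and without the cell with most UMIs of the pair it was 51.9% (31.9 to 71.3) of 27. In cells of 1000 UMIs or more S100a8 made up 82.7% (69.7 to 91.8) of 52 UMIs, an interval above those of all the shallower groups except the one left with 27 UMIs. There S100a8 was at 28.5 CPM and S100a9 at 5.96 CPM, against 82.3 and 114 CPM in barcodes of 1 to 100 UMIs.

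The WT LPS cell with most S100a8 and S100a9 UMIs had 917 UMIs in all. Beside 24 S100a8 and 23 S100a9 UMIs it held 4 of 1100001G20Rik, 2 of Lcn2, 1 of Hp, 3 of Mmp8, a neutrophil collagenase, and 2 of Retnlg, a further neutrophil marker. It also held 14 UMIs of the microglial markers, among them 4 of C1qc and 2 of C1qa, where 917 UMIs of the profile of barcodes of 1 to 100 UMIs would hold 15.1. The next cell had 570 UMIs, with 6 of S100a9, 3 of S100a8, 2 each of Lcn2, 1100001G20Rik and Csf3r, and 7 of C1qa. It held 14 UMIs of microglial markers in all, where that profile would give 9.41. Csf3r, which microglia also express, was its only neutrophil marker among those examined, and Mmp8, Retnlg and Cxcr2 were at 0 in it. Whether either droplet held more than 1 cell was not tested.

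To compare shares of cells at equal depth, every cell was thinned to 500 UMIs by random draws without replacement. Lcn2 then had at least 1 UMI in 164 of 1427 WT LPS cells, 11.5% (9.88 to 13.3), compared with 20.7% with all UMIs. Droplets of 500 UMIs filled only from the profile of barcodes of 1 to 100 UMIs would reach 8.78% (6.74 to 11.2). The 2 intervals overlapped, so the share itself was not set apart from free RNA. The distribution over cells differed more, because 35 cells (2.45%, 1.71 to 3.39) had 3 or more Lcn2 UMIs in 500, where that profile would give 0.171 cells. The same number of Lcn2 UMIs spread evenly would have reached 19.1% of cells. Lcn2 was thus concentrated in a minority of WT LPS cells, with up to 30 UMIs in a cell before thinning and 20.2% of its UMIs in the 10 highest cells.

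The other members were found in few cells at equal depth. Hp was detected in 1.54% (0.969 to 2.32) of WT LPS cells and 0.946% (0.348 to 2.05) of droplets of free RNA, 1100001G20Rik in 0.631% (0.289 to 1.19) and 0.316% (0.0383 to 1.14), and Prss16 in 0.701% (0.337 to 1.28) and 0.474% (0.0979 to 1.38). For these 3 transcripts the intervals overlapped. S100a8 was detected in 1.47% (0.913 to 2.24) of cells and would be in 4.03% (2.65 to 5.85) of droplets of free RNA, and S100a9 in 0.701% (0.337 to 1.28) against 5.54% (3.91 to 7.59), so both shares lay below what free RNA alone would give. In KO LPS, 0 of 320 cells had a UMI of any member, which allows a share of up to 0.938% (3 of 320 cells) for cells with a UMI of each, or 1.15% by the exact Clopper-Pearson limit; this limits detection at this depth, not the share of cells that express a member.

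**Figure D3:**
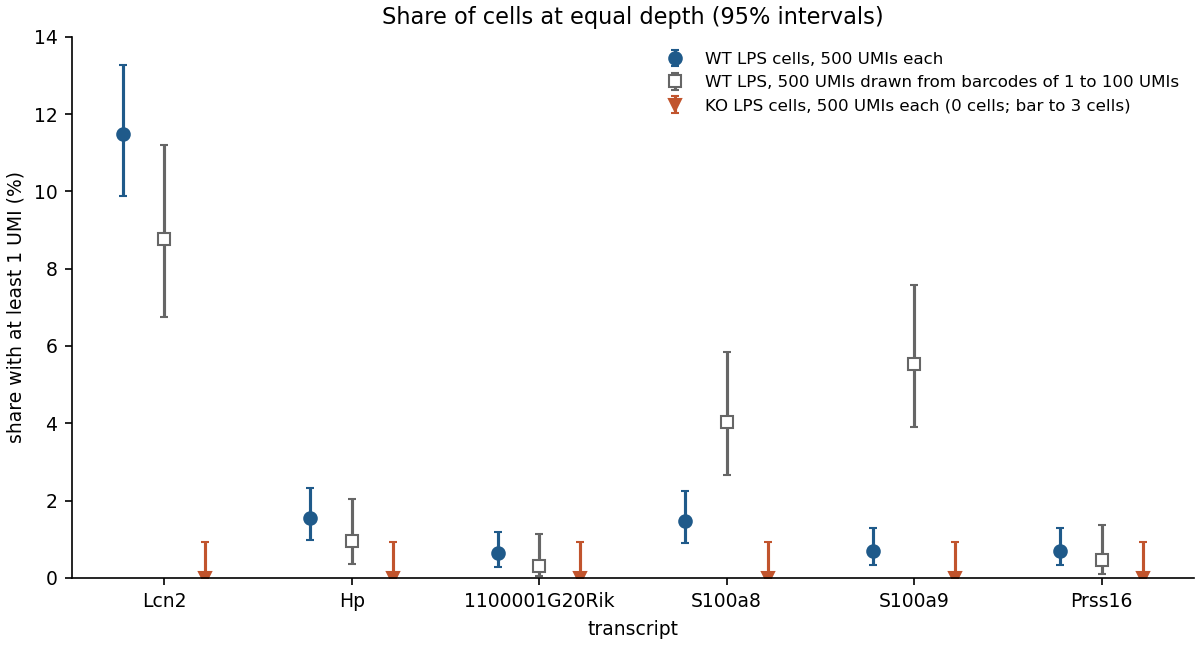
Share of cells (%) with at least 1 UMI of each member after thinning to 500 UMIs, in WT LPS (circles) and KO LPS (triangles), and the share that 500 UMIs drawn from WT LPS barcodes of 1 to 100 UMIs would reach (squares), with 95% intervals, or a bar up to 3 cells where the share is 0. Lcn2 stands at 11.5% beside 8.78%, with overlapping intervals, and S100a8 and S100a9 lie below their squares at 1.47% and 0.701%.

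Members were then examined for detection in the same WT LPS cell, given as the number of cells with both transcripts over the number that the product of their shares gives. Cells of 1 library are not replicates, and these ratios describe that library. Lcn2 and Hp were found together in 4 thinned cells where 2.53 would be given, a ratio of 1.58 (0.431 to 4.05), in the mean over all possible draws at a ratio of 2.60, and without thinning in 22 cells against 9.30, a ratio of 2.36. With Lcn2, 2.32% of the 5680 genes found in at least 20 thinned cells had a ratio of 2 or more in the single draw. Lcn2 and 1100001G20Rik shared 4 thinned cells against 1.03 (ratio 3.87, 1.05 to 9.90, and 2.89 over all draws). The ratios over all draws were 1.94 with S100a8, 2.46 with S100a9 and 2.76 with Prss16, and in the single draw their intervals included 1. All 5 ratios with Lcn2 were above 1 in each way of counting, but each rested on 2 to 6 thinned cells. Without thinning, deeper cells hold more of every transcript, which raises such ratios. The microglial gene Gpr34, at 0.788 with Lcn2 over all draws, was found with it in 65 unthinned cells against 59.1.

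S100a8 and S100a9 were found together in 3 thinned cells against 0.147, a ratio of 20.4 (4.20 to 59.6) and 16.8 over all draws. 1100001G20Rik had a ratio of 15.1 (1.83 to 54.5) with S100a8 and 31.7 (3.84 to 115) with S100a9, on 2 shared cells each. Without the cell of 917 UMIs described above the 3 ratios were 15.8, 8.91 and 19.8. Among cells of 1000 UMIs or more, thinned to 1000, the ratio of S100a8 and S100a9 was 5.13, while 1100001G20Rik shared 0 cells with either. Its ratios thus rested on the 2 shallower cells. In those 770 deeper cells 1100001G20Rik, S100a8 and S100a9 were found in 1.30%, 3.25% and 0.779%, so a shared cell was unlikely in advance. Nothing is read from its absence. Prss16 shared 0 thinned cells with S100a9 or 1100001G20Rik, where 0.0701 and 0.0631 would be given, so nothing could be read from those pairs.

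**Figure D4:**
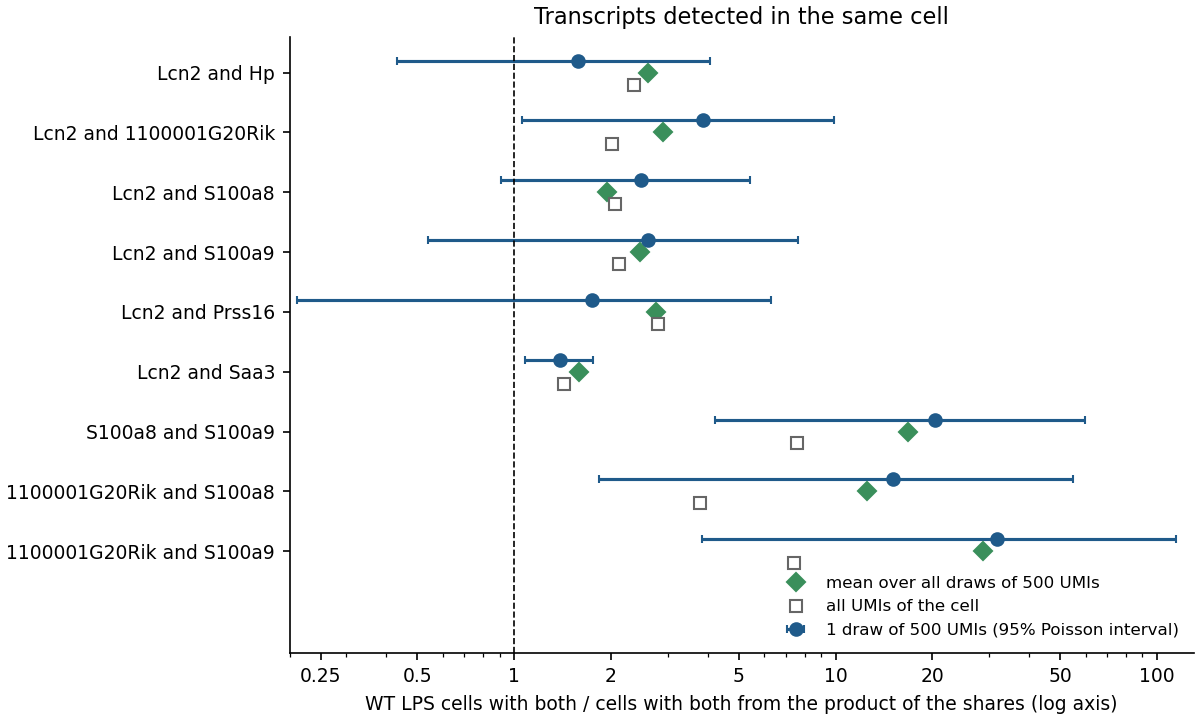
Number of WT LPS cells with both transcripts over the number from the product of their shares (log axis) for pairs of members and for Lcn2 with Saa3. Circles are 1 draw of 500 UMIs with 95% Poisson intervals, diamonds the mean over all draws, open squares all UMIs, and the dashed line marks 1; pairs with Lcn2 lie between 1.39 and 3.87 and the 3 pairs among 1100001G20Rik, S100a8 and S100a9 between 3.80 and 31.7.

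Within WT LPS, cells with more Lcn2 also held more of the acute phase and LPS response genes. At 500 UMIs per cell the list summed to 8374 CPM (8150 to 8603) in the 1263 cells without Lcn2, 13122 CPM (12128 to 14177) in 98 cells with 1 UMI, 16000 CPM (14070 to 18120) in 31 cells with 2 and 27371 CPM (24975 to 29936) in 35 cells with 3 or more. These intervals overlapped only between the cells with 1 and 2 Lcn2 UMIs. Saa3 gave 287 of the 479 UMIs of the list in the last of these groups, and without Saa3, a split made after its values were seen, the list stood at 5196 (5019 to 5376), 7367 (6627 to 8168), 8774 (7362 to 10379) and 10971 CPM (9474 to 12638), or 2.11 times as high in cells with 3 or more as in cells with none, against 3.27 times with Saa3. Saa3 went from 3178 to 5755, 7226 and 16400 CPM across the same cells, and was detected in 29.2% (26.7 to 31.8), 33.7% (24.4 to 43.9), 45.2% (27.3 to 64.0) and 65.7% (47.8 to 80.9) of them. Il1b, which encodes interleukin 1 beta and is on the same list, went the other way in this draw, at 173 (142 to 208), 20.4 (0.517 to 114), 0 and 0 CPM. The intervals of the 2 zeros reached 238 and 211 CPM and so included 173 CPM. Only the cells with 1 Lcn2 UMI lay below the cells without Lcn2.

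Microglial markers summed to 28550 (28134 to 28969), 27000 (25565 to 28495), 29097 (26473 to 31910) and 24914 CPM (22630 to 27366) in these 4 groups of cells, so the level in cells with 3 or more Lcn2 UMIs lay below that in cells without Lcn2, and were detected in all cells of the 3 groups with Lcn2. The regulators of Lcn2 summed to 3519, 3755, 3097 and 4114 CPM, with overlapping intervals. Neutrophil markers summed to 276, 347, 194 and 229 CPM, but Csf3r and the other markers differed: Csf3r had 124, 8, 2 and 0 UMIs, while the rest had 50, 9, 1 and 4 UMIs, or 79.2 (58.8 to 104), 184 (84.0 to 349), 64.5 (1.63 to 359) and 229 CPM (62.3 to 585), with overlapping intervals. In the 35 cells with 3 or more Lcn2 UMIs, Hp had 2 thinned UMIs and S100a8 and S100a9 had 0, where 3 counts correspond to 171 CPM. The cells richest in Lcn2 thus held no calprotectin transcript in the draw, although a level like the 26.9 CPM of S100a8 in cells without Lcn2 would not be detectable in so few cells.

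**Figure D5:**
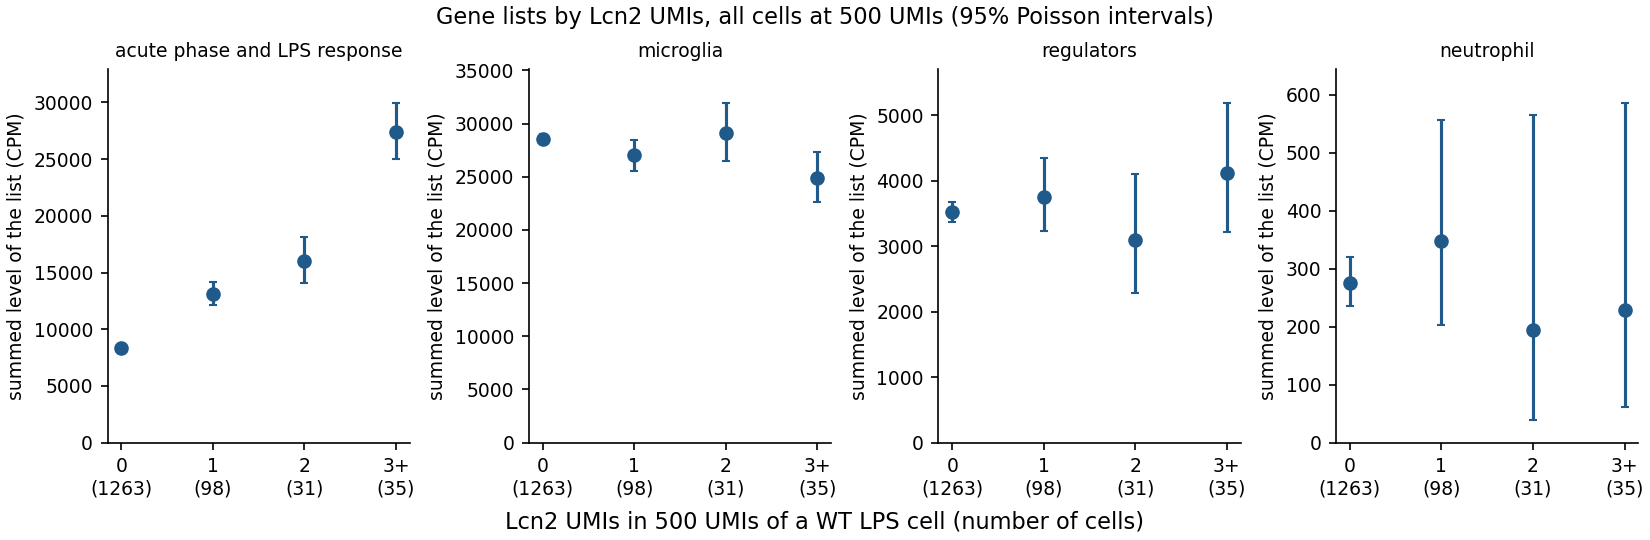
Summed level (CPM, linear axes from 0) of 4 gene lists in WT LPS cells grouped by their Lcn2 UMIs, with every cell at 500 UMIs and the number of cells in brackets; bars are 95% Poisson intervals. The acute phase and LPS response list, which does not contain Lcn2, runs from 8374 to 27371 CPM, while the microglial list is at 28550 CPM in cells without Lcn2 and 24914 CPM in cells with 3 or more UMIs; the neutrophil list includes Csf3r, which has 124 of its 174 UMIs in the cells without Lcn2.

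Gene by gene, Lcn2 and Saa3 were found together in 70 thinned cells against 50.5, a ratio of 1.39 (1.08 to 1.75) and 1.59 over all draws. Over all draws, 6 of the 15 acute phase and LPS response genes found in at least 20 thinned cells had a ratio of at least 1.5 with Lcn2 and 1, Il1b at 0.604, had at most 0.67, where 4.23% and 10.7% of 5678 genes did. The median ratio was 1.12 over the list and 0.98 over all genes. Without thinning, where depth raises such counts, Il1b and Lcn2 were found together in 27 cells against 24.0. The 6 genes, chosen here after their values were seen, were Marco at 1.92, a scavenger receptor, Cp at 1.83, which encodes ceruloplasmin, Sod2 at 1.80, the mitochondrial superoxide dismutase, Ccl5 at 1.61, Saa3 at 1.59 and Irg1 at 1.57, the itaconate-producing enzyme. None of 15 microglial markers and 17 regulators reached 1.5. Of the 3 neutrophil markers compared, 1810033B17Rik had 1.79 (8 cells against 3.79 in the single draw), Trem1 0.827 and Csf3r 0.553, and of the S100 genes S100a10 had 1.69 and S100a13 0.945. In the single draw the 5 genes most like Lcn2 in their detection over the 1427 thinned cells were AW112010, Msr1, Ccl5, Marco and Sdc4, with Pearson's r from 0.132 to 0.169, which is weak and no finding in counts this sparse. The order changed with the draw: over all draws the first 5 were Sdc4, AW112010, Saa3, Msr1 and Srgn, with Marco at rank 8 and Ccl5 at rank 14. The 5 genes of the single draw were lower in KO LPS, with ratios of 0.0302 for AW112010, 0.112 for Sdc4 and 0.0119 for Marco and with 0 KO LPS UMIs for Ccl5.

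Lcn2 also differed between Xist-only and Y-only cells of WT LPS. These classes separate the female and the male mouse only in part. They leave out 587 cells with neither kind of UMI, at 377 CPM of Lcn2 (331 to 428), and 80 cells with both, at 233 CPM (176 to 303). Sex-linked transcripts were also free in the suspension: Xist was 0.766 times (0.680 to 0.865) as high in cells as in barcodes of 1 to 100 UMIs. At 500 UMIs, 27.9% (25.6 to 30.3) of cells had Xist and no Y-linked UMI, where that profile alone would give 36.9%, 6.17% (4.97 to 7.54) had the reverse, where it would give 5.71%, and 0.981% (0.537 to 1.64) had both, where it would give 3.93%. Lcn2 was at 659 CPM (605 to 718) in the 565 Xist-only cells of WT LPS and at 182 CPM (138 to 237) in its 195 Y-only cells, a ratio of 3.62 (2.75 to 4.86). At equal depth the shares of cells with Lcn2 were 16.5% (13.5 to 19.8) and 6.15% (3.22 to 10.5). S100a8 was at 66.7 and 16.3 CPM, a ratio of 4.10 (1.65 to 13.1), and S100a9 at 39.5 and 3.25 CPM, a ratio of 12.1 (2.03 to 495), with 1 S100a9 UMI in the Y-only cells. The cell with most calprotectin UMIs was Xist-only, and without it the ratios were 2.28 (0.876 to 7.53) for S100a8, on 30 and 5 UMIs, and 3.42 (0.474 to 150) for S100a9, on 9 and 1 UMIs, so that both intervals included 1. For Lcn2 the ratio without that cell was 3.61 (2.74 to 4.85). The intervals of Hp, 1100001G20Rik and Prss16 included 1, with ratios of 1.52 (0.648 to 4.12), 3.99 (0.975 to 35.1) and 5.70 (0.876 to 240). With 1 mouse per sex in the library, sex and mouse cannot be told apart.

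The summed acute phase and LPS response list differed less between these cells than Lcn2 did, at 11237 and 7741 CPM, a ratio of 1.45 (1.39 to 1.52). Its genes did not all go 1 way: of 21 genes, 8 had intervals above 1, among them Saa3 at 1.56 and Msr1 at 1.98, 12 had intervals that included 1, such as Ccl5 at 0.876 (0.719 to 1.07), and Marco lay below 1 at 0.818 (0.677 to 0.991). Within the Xist-only cells, the list stood at 9081 CPM (8700 to 9473) in 472 cells without Lcn2 and at 18323 CPM (17113 to 19595) in 93 cells with Lcn2. Within the Y-only cells, it stood at 6743 CPM (6222 to 7297) in 183 cells without Lcn2 and 13833 CPM (11018 to 17149) in 12 cells with it. Without Saa3 the list stood at 5742 and 8602 CPM in the Xist-only cells and 4372 and 7667 CPM in the Y-only cells. The 182 CPM of Lcn2 in Y-only cells and the 6.15% of them with Lcn2 were no higher than the 184 CPM and 8.78% of free RNA. The acute phase and LPS response list was at 5105 CPM (4859 to 5361) in the WT LPS barcodes of 1 to 100 UMIs. Whether the Lcn2 UMIs of the 12 Y-only cells came from free RNA was not tested. All 6 members were at 0 in the 200 Xist-only cells of KO LPS (3 counts there are 11.5 CPM) and in its 12 Y-only cells, where 3 counts are 208 CPM, above the Lcn2 level of the corresponding WT LPS cells.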

How the data were processed

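The authors deposited 1 matrix of raw counts per library, that is UMIs per gene and barcode without normalisation and not limited to cells, with 9999 barcodes each. The submitters' processing notes name bcl2fastq 2.0, STAR, mm9 and mm10; which build, annotation and strand setting gave these counts is not given in the sources used here, so overlapping genes are uncertain. Missing values were read as 0. Both libraries were grouped by the genotype label, and 0 sample columns were left unused. Members and gene lists were chosen with earlier results of these data known.

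Counts were analysed with numpy 2.4.6, scipy 1.17.1, pandas 2.3.3 and matplotlib 3.10.9 under Python 3.11.15. Cells had at least 500 UMIs and 100 genes, and doublets were not removed. Depth sets the precision: 3 counts, the floor used for a library at 0, correspond to 7.87 CPM in KO LPS cells and 1.51 CPM in WT LPS cells. Genes of a list were compared with at least 20 UMIs over both libraries. Named were the members, the 4 genes per list with the largest log2 ratio (prior count 0.5) and the 5 genes most like Lcn2 (each in at least 20 thinned cells); genes outside this rule, such as Il1b, Cebpb and the C1q genes, were named after their values were seen. RefSeq synonyms linked older gene symbols to current ones. Thinning used 1 seeded draw, with the mean over all draws as an alternative. Other alternatives concerned the cell threshold, free RNA, single cells, sex-linked classes, the total and the barcodes taken as empty. The calculations were tested on simulated data. No test between genotypes was made because each had 1 library.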

Additional observations from a re-analysis of the deposited data

How the results depend on the processing

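Of 183 values recomputed under alternatives, 131 stayed within the counting interval of the reported value, or within 1.5-fold for counts. A further 50 moved beyond it, and 2 with an interval clear of no change were counted as reversed. In cells of 1000 UMIs the ratios of 1100001G20Rik with S100a8 and with S100a9 were 0 and 0, with no shared cell. With the 3 transcripts in 1.30%, 3.25% and 0.779% of those 770 cells, a shared cell was unlikely in advance, so nothing is read from these 2 values. A further 3 of the 50, whose intervals had included no change, turned: cells over empty barcodes, against barcodes of 1 to 50 UMIs, from a log2 ratio of 1.51 to -1.94 for 1100001G20Rik and 0.71 to -2.16 for Prss16, and the neutrophil list in cells with 3 or more Lcn2 UMIs over cells with none, from 0.83 to 2.89 times without Csf3r. The Lcn2 level in WT LPS (445 CPM) became 410 CPM with all barcodes of at least 100 genes, 415 CPM without the 3 cells with most member UMIs, 659 CPM in Xist-only and 182 CPM in Y-only cells, 510 CPM with 20% of free UMIs removed, 491 CPM without mitochondrial, ribosomal RNA and Malat1 counts and 365 CPM with all barcodes, the last an alternative chosen after seeing the data. S100a9 fell from 22.6 CPM to 0 with free UMIs removed. The summed members were at least 73.1-fold lower in KO LPS, and at least 46.0-fold in cells of 1000 UMIs, 86.9-fold with 100 genes only, 64.0-fold without the 3 cells, 118-fold with all barcodes and 1.13-fold in Y-only cells, of which KO LPS had 12. The Lcn2 share of cells rose from 11.5% to 18.8% at 1000 UMIs. The log2 level in cells over empty barcodes went from 1.28 to 0.68 for Lcn2 against barcodes of 1 to 50 UMIs (4 UMIs there). For S100a9 it went from -2.33 to -3.21 on that change, to -4.26 in cells of 1000 UMIs and to -3.37 without the cell with most S100a8 and S100a9, a choice made after seeing the data. Depth limits the 5 scarcer members, whose KO LPS bounds lie between 1.98-fold and 5.18-fold at the floor of 3 UMIs. No paired analysis was possible because each genotype had 1 library.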
